A study of Mus musculus with 6 samples.

Results

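Microarrays used to measure small RNAs of the small intestinal mucosa in Cdr1as-/- mice and their littermates carried a class of probes marked PST in the identifier, beside a class for mature miRNAs and a class marked TRF. The PST probes described here are the 545 that the deposited table of normalized log2 intensities contains, taken by the letters PST in the probe identifier. They were 545 of the 2716 PST probes among 14192 small RNA probes on each array. The normalized table held 10690 probes in all, of which 8437 were miRNA probes and 1708 were TRF probes. The files do not say what PST stands for, and they pair no PST probe with a gene, a transcript, or a sequence. Probes are therefore given by identifier, without the letters ASMM10SMR20 before PST and TV1 at the end, which all of them share.

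Total RNA from 3 littermates with a wild-type Cdr1as locus and 3 mice lacking Cdr1as was hybridized to 6 one-colour Agilent arrays, 1 sample per array. The Cdr1as-/- mice were made on the C57BL/6J background by injecting embryos with Cas9 protein and guide RNAs aimed upstream of the Cdr1as splice sites. The ages of the mice were not used here, and no treatment is given for either group apart from fasting. The study's methods state, for its animals in general, that food was withheld before experiments while water stayed available. The samples of a group are numbered in the labels, and the study describes them as separate animals. Cdr1as itself is not among the probes, so the deletion could not be checked on the arrays. Of the mature miRNAs read as tissue markers on the deposited log2 scale, the median of the 6 epithelial ones lay between 10.9 and 13.7 on the 6 arrays, that of the 4 smooth muscle and mesenchyme ones between 4.87 and 8.87, of the 4 immune ones between 7.11 and 8.36, of the 2 erythroid ones between 4.53 and 8.10, and of the 2 neuronal ones between 3.30 and 3.68. Littermate 3 had the lowest median in all of these lists except the neuronal one, and the erythroid median was highest in littermate 1. Levels of different probes cannot be ranked against each other, and the part of other cell types in the results below was not tested.

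Cdr1as is a circular RNA that binds miRNAs, with many sites for miR-7, and its loss is known to alter miRNA levels in brain. The mucosa of the small intestine is a sheet of absorptive and secretory cells renewed from stem cells in the crypts, lying over a stroma of mesenchymal, immune, and vascular cells. Total RNA from such tissue holds, besides miRNAs, fragments and whole molecules of other short noncoding RNAs, and a labelling reaction that acts on any free 3′ hydroxyl end marks them along with the miRNAs. In bulk tissue, fewer cells of a type and less RNA per cell cannot be told apart.

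Littermate 3 stood apart from the other 5 arrays in every class of probe, and Cdr1as-/- mouse 1 deviated the same way to a lesser degree. The 75th percentile of the processed signal (the fluorescence of a spot after the scanner software subtracted its local background), taken over the 5548 small RNA probes well above background on all 6 arrays, stood at 171, 200.3, and 4042 in the littermates and 770.2, 224.0, and 255.3 in the Cdr1as-/- mice. Values for a group are given throughout in the order of the mice, 1 to 3. On log2 values of the PST probes of the normalized table, littermate 1 correlated with littermate 2 at a Pearson r of 0.97, whereas littermate 3 correlated with littermates 1 and 2 at 0.75 and 0.77. Littermate 3 was nearer to Cdr1as-/- mouse 1 and Cdr1as-/- mouse 3, at 0.87 and 0.86. The counts over the members are given with and without littermate 3. The unscaled fits, the scaling to PST probes, and the fits without Cdr1as-/- mouse 2 as well were chosen after seeing the data. These correlations are across probes of single arrays and are a description only. Littermate 1 was scanned apart from the other 5 arrays, and Cdr1as-/- mice 2 and 3 carried another first number in the position field of the scanner output than the other 4. The part of these features in the results was not tested except where stated.

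Most PST probes gave little or no signal. Of the 2716 PST probes, 882 were not well above background, by the scanner software's own flag, on any array, 1082 were so on 1 array, and 207 on 2 arrays. None of these 2171 probes is in the normalized table, and each of the 545 probes in the table was well above background on at least 3 arrays, so the members were in effect chosen by detection, and their detection rates are a description. Of the members, 94 were well above background on 3 arrays, 115 on 4, 122 on 5, and 214 on all 6, which makes the probes seen in every mouse 7.88% of the PST class and 39.3% of the members. Just inside this boundary, the 94 members seen on 3 arrays had median processed signals of 2.55, 4.14, and 42.0 in the littermates and 8.78, 3.73, and 5.68 in the Cdr1as-/- mice. Just outside it, the 207 probes seen on 2 arrays had median signals of 1.55, 2.89, and 24.7 in the littermates and 6.17, 3.73, and 3.30 in the Cdr1as-/- mice.

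The number of members detected differed between mice of one genotype more than between the genotypes. In the littermates, 354, 473, and 544 of the 545 members were well above background, or 65.0%, 86.8%, and 99.8%. In the Cdr1as-/- mice the numbers were 543, 215, and 507, or 99.6%, 39.4%, and 93.0%. Both groups thus held an array with nearly all members detected and an array with far fewer, and the ranges overlapped. Over all 2716 PST probes the shares were 13.1%, 17.5%, and 67.5% in the littermates and 27.3%, 7.92%, and 18.9% in the Cdr1as-/- mice. Littermate 3 was the array with by far the most PST probes detected, and 1082 of the 1289 probes outside the table that were well above background there were so on no other array.

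Cdr1as-/- mouse 2, with the fewest members detected, also had the most variable background. The SD of the negative control spots was 2.99 on that array and between 0.572 and 1.09 on the other 5, and the lowest processed signal that any probe well above background had there was 18.4, against 4.73 to 5.76 on the others. On that array 153 members, 28.1%, stood at its lowest value of 3.73, where they have no order among themselves. Littermate 1 had 21 members at its lowest value of 1.17, littermate 2 had 1, and the other 3 arrays had none. In the commonest patterns of detection, 214 members were well above background on all arrays, 121 on all except Cdr1as-/- mouse 2, 102 on all except littermate 1 and Cdr1as-/- mouse 2, and 66 only on littermate 3 and Cdr1as-/- mice 1 and 3. Across the genotypes, 1 member was well above background in all 3 littermates and in no Cdr1as-/- mouse, and 0 members showed the opposite pattern.

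The members' signals were low and spread over a wide range. The median processed signals of the 545 members were 9.99, 11.9, and 91.9 in the littermates and 22.3, 10.3, and 14.4 in the Cdr1as-/- mice. The 95th percentiles were 454, 453, and 1840 in the littermates and 719, 601, and 489 in the Cdr1as-/- mice, and the brightest member reached 84100, in littermate 3. Littermate 3 had the highest median and 95th percentile, Cdr1as-/- mouse 1 the next, and the other 4 arrays lay close together in both genotypes. On the deposited normalized log2 scale the order turned, with member medians of 4.64, 4.53, and 3.41 in the littermates and 4.06, 3.998, and 4.77 in the Cdr1as-/- mice, while the median of all 10690 probes of the table was 4.98 on each array. On that scale littermate 3 had the lowest median PST level of the 6.

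A few probes carried most of the PST signal. The 3 brightest members held 63.5%, 61.2%, and 36.1% of the members' summed signal in the littermates and 53.8%, 63.4%, and 55.6% in the Cdr1as-/- mice. The 50 brightest held between 83.6% and 95.5%. The numbers of members above a signal of 1000 were 19, 17, and 42 in the littermates and 24, 19, and 16 in the Cdr1as-/- mice. Littermate 3 had the least concentrated signal, and without it the shares of the 2 genotypes overlapped. Summed over all 2716 PST probes, the signals were 262295, 247753, and 456854 in the littermates and 283717, 272152, and 195398 in the Cdr1as-/- mice, which is between 1.09% and 1.25% of the signal of all small RNA probes on every array. Summed TRF signal was between 0.786 and 1.02 times that of littermate 1 on all arrays, and summed miRNA signal was 8.71 times that of littermate 1 in littermate 3 and 1.76 times in Cdr1as-/- mouse 1.

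The 5 members with the highest mean normalized level differed in where littermate 3 stood among the arrays. PST100033973, the brightest, ranked 126 among the 10690 probes of the table. Its processed signals were 50300, 47700, and 84100 in the littermates and 53900, 52500, and 40500 in the Cdr1as-/- mice. PST100028054 ranked 182, with signals of 53300, 43200, and 35400 in the littermates and 39800, 51200, and 26600 in the Cdr1as-/- mice. For both probes the groups overlapped. PST100018510, which ranked 198, gave 61100, 58600, and 15400 in the littermates and 55800, 63600, and 39700 in the Cdr1as-/- mice, so littermate 3 was the lowest array.

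In the other 2 of the brightest 5, littermate 3 was the highest. PST100007332 gave 5360, 3540, and 37700 in the littermates and 13900, 4740, and 6190 in the Cdr1as-/- mice. PST100041709 gave 2540, 6400, and 35500 in the littermates and 10200, 4620, and 9990 in the Cdr1as-/- mice. In each, Cdr1as-/- mouse 1 was the next after it, and the remaining arrays of the genotypes overlapped. For these 5 probes the limma difference between Cdr1as-/- mice and littermates over all 6 arrays, on the scaled log2 values (each array's 75th percentile subtracted), was above 0, from 0.28 in PST100033973 and PST100007332 upward, with an adjusted p of 0.9997 for each (Benjamini-Hochberg). Without littermate 3 the differences were -0.94, -1.27, -1.13, -0.16, and 0.02 in the order given, so the sign turned in 4 of the 5.

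Across all members, the deviation of littermate 3 followed the brightness of the probe. Each member's unscaled signal was compared with the geometric mean of littermates 1 and 2, and members were grouped by that mean, so the values describe the arrays and carry no test. In littermate 3 the 267 members with a mean up to 10 were a median of 12.2-fold higher, the 201 between 10 and 100 were 5.57-fold higher, the 58 between 100 and 1000 were 2.79-fold higher, and the 19 above 1000 stood at 0.872-fold. The dimmest members thus deviated most on littermate 3. However, members were chosen by detection on at least 3 arrays, which favours dim probes that were brighter elsewhere. Of the 267 dimmest, 266 were well above background on littermate 3 and 266 on Cdr1as-/- mouse 1, against 76 on littermate 1. The part of this choice in the order of the groups was not tested. In Cdr1as-/- mouse 1 the same 4 groups stood at 2.60, 1.67, 1.31, and 0.960-fold, the same order at a smaller size. In Cdr1as-/- mouse 2 they stood at 0.992, 1.02, 1.14, and 0.997-fold, and in Cdr1as-/- mouse 3 at 1.55, 0.981, 0.831, and 0.665-fold. In the dimmest group, however, 0 of the 267 members were well above background in Cdr1as-/- mouse 2 and 149 stood at its lowest value, so its median there is not a measured level. In the 2 brightest groups all members were detected on that array, and Cdr1as-/- mouse 3 deviated from them at both ends of the range.

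The classes of probes did not shift together, and the relative PST level depended on what it was set against. Over the 214 members well above background on all 6 arrays, the median deviation from littermates 1 and 2 was -2.46 in littermate 3 and -1.51, -0.14, and -0.64 in the Cdr1as-/- mice, on log2 values scaled to the array's 75th percentile. The TRF probes detected on all arrays deviated by -2.58 in littermate 3 and by -1.11, -0.24, and -0.15 in the Cdr1as-/- mice, and the miRNA probes by 0.96 and by 0.12, 0.22, and 0.00. On unscaled log2 signal the PST medians were 1.99 in littermate 3 and 0.55, 0.13, and -0.17 in the Cdr1as-/- mice. On the authors' normalized log2 values they were -2.54 in littermate 3 and -1.32, -0.22, and -0.59 in the Cdr1as-/- mice. The sign for littermate 3 and Cdr1as-/- mouse 1 was thus opposite on the scaled and the unscaled signal, and the arrays of the Cdr1as-/- group differed among themselves by more than 1 log2 unit on the scaled one.

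The comparison between the genotypes asked whether loss of Cdr1as altered these small RNAs along with the miRNAs for which the arrays were run. Differences were fitted with limma on the scaled log2 signal of all 8377 small RNA probes detected (well above background) in all mice of one genotype or the other, and p-values were adjusted over all of them. Of the members, 347 were tested and 198 were not. All 347 passed through the littermates: 214 were detected on all arrays and 133 on all 3 littermates but not on all Cdr1as-/- mice. No member passed through the Cdr1as-/- mice alone, so the tested members are not a neutral sample for the direction of change. Of the 347, 22 were at the lowest value of Cdr1as-/- mouse 2.

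With all 6 arrays, 0 of the 347 members passed an adjusted p of 0.05 in either direction, where 0.0% of all tested probes passed as lower and 0.0% as higher. Before adjustment, at a p below 0.05, limma had 1 member lower in the Cdr1as-/- mice, where the share of all tested probes was 0.203%, and 0 higher, where it was 0.0836%. The groups did not overlap, with all Cdr1as-/- mice below all littermates, in 3 members, 0.865% against 4.12% of all tested probes, and in the other direction in 2, 0.576% against 0.358%. On unscaled signal the relation differed. There 13 members lay lower without overlap, 3.75% against 1.40% of TRF and 0.465% of miRNA probes. Of these 13, 8 were among the 214 members detected on all arrays, 3.74% of them. The others passed the filter through the littermates alone, the group in which they were higher, so the filter favoured this direction. In the other direction there were 0 members, against 0.0634% of TRF and 0% of miRNA probes. The difference was below 0 in 156 of the 347 members, against 63.1% of all tested probes. The median log2 difference was 0.05 over the 347 members and -0.14 over all 8377 probes. The members' differences ranged from -1.18 to 1.44, with a median standard error of 0.71. With no scaling the medians were -0.50 over the members and -0.69 over all probes, so the sign of the PST median turned with the scaling. The median standard error of a member was then 1.05.

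The member with an unadjusted p below 0.05 was PST100005993. Its processed signals were 10.8, 13.4, and 145 in the littermates and 17.7, 5.54, and 5.83 in the Cdr1as-/- mice, which overlap. After scaling, its log2 levels were -3.98, -3.90, and -4.80 in the littermates and -5.44, -5.34, and -5.45 in the Cdr1as-/- mice, which do not. The limma difference was -1.18 ± 0.44 (SE; unadjusted p = 0.0301, Benjamini-Hochberg adjusted p = 0.9997). An exact two-sided permutation test gave p = 0.1, the smallest that 3 against 3 allows. PST100005993 was below the detection flag in Cdr1as-/- mouse 2, so it passed the filter through the littermates alone. Its signal there lay under 18.4, the lowest of any detected probe on that array, so that level was not measured above background. The other 2 members whose scaled levels lay lower in all Cdr1as-/- mice were PST100034029, at -1.14 ± 0.50, and PST100034104, at -1.08 ± 0.48, and each was below the detection flag in 1 of the 3 Cdr1as-/- mice. Without littermate 3 these 3 members stood at -1.47, -0.86, and -1.26, and with no scaling as well at -0.54, 0.07, and -0.33.

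The 2 members whose scaled levels lay higher in all Cdr1as-/- mice were PST100038359 and PST100020349. PST100038359 gave processed signals of 29.9, 30.5, and 785 in the littermates and 252, 64.4, and 59.4 in the Cdr1as-/- mice. Its scaled log2 levels were -2.52, -2.71, and -2.36 in the littermates and -1.61, -1.80, and -2.10 in the Cdr1as-/- mice. The difference was above 0 under each scaling tried, at 0.69 ± 0.40 over all arrays, 0.14 ± 1.53 over all arrays on unscaled signal, 0.78 ± 0.40 without littermate 3, and 1.71 ± 0.73 without littermate 3 on unscaled signal, where its unadjusted limma p was 0.0287. PST100020349 was the member with the steadiest scaled level across the 5 arrays without littermate 3, with an SD of 0.13. Its signals of 464, 548, and 8430 in the littermates and 2580, 703, and 778 in the Cdr1as-/- mice followed the 75th percentile of each array closely, and the scaled difference was 0.35 ± 0.39 (-0.20 on unscaled signal). On unscaled signal both probes overlapped between the genotypes.

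Without littermate 3, again 0 members passed an adjusted p of 0.05, where 0.0% of all tested probes passed as lower and 0.0% as higher, and the smallest adjusted p of a member was 0.306. At an unadjusted p below 0.05, 89 of the 347 members, 25.6%, were lower in the Cdr1as-/- mice on the scaled signal, where the share of all tested probes was 14.8%, but with no scaling 1 was, where it was 0.0239%. Of the 89, 46 were detected on all arrays, 21.5% of the 214 such members. The others passed the filter through the littermates alone, which favours the lower direction, and were not detected in at least 1 Cdr1as-/- mouse. Among the TRF probes the scaled share was 31.5% and among the miRNA probes 10.1%, so that on this scale the PST share lay between those of the other classes. On the authors' normalized values the shares were 25.6% of PST, 8.37% of TRF, and 11.6% of miRNA probes, with the PST share the highest. With no scaling they were 0.288%, 0%, and 0.0155%. These stand for 1 of 347 PST, 0 of 1577 TRF, and 1 of 6453 miRNA probes, too few to rank the classes. In the higher direction 1 member had an unadjusted p below 0.05 on the scaled signal, where the share of all tested probes was 1.4%, and 2 with no scaling, where it was 10.1%. The median difference over the 347 members was -0.70 on the scaled signal and 0.23 with no scaling, against -0.14 and 0.80 over all 8377 probes.

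On both of these scales the median PST probe thus lay below the median of all tested probes, and the sign of its own difference followed the scaling. Scaling subtracts the same amount from every probe of an array, so this gap had to be alike on both scales and is a single result. When the arrays were scaled to the 75th percentile of the PST probes themselves, the median over the 214 members detected on all arrays was -0.05, which that scaling holds near 0 by its construction. The scaled difference was below 0 in 319 of the 347 members, against 56.0% of all tested probes, and the unscaled one in 109, against 17.2%. On the scaled signal all 3 Cdr1as-/- mice lay below both littermates in 166 members and above both in 2, where the shares of all tested probes were 28.7% and 17.4%. On the unscaled signal the counts were 20 and 59, where the shares were 3.8% and 40.0%. On the authors' normalized log2 values without littermate 3, 89 members passed an unadjusted p of 0.05 as lower and 2 as higher, where the shares of all tested probes were 11.6% and 1.9%, and 66 of these 89 were among the 89 on the scaled signal.

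The Cdr1as-/- mice did not contribute alike to the 89 members lower on the scaled signal. Cdr1as-/- mouse 1 was the lowest of the 3 Cdr1as-/- mice in 78 of them, and Cdr1as-/- mouse 2 was the highest in 68. Littermate 3, which entered the detection filter but not this fit, lay below all 3 Cdr1as-/- mice in 79, opposite to littermates 1 and 2. The 214 members detected on all arrays stood in the same order by their median deviation from littermates 1 and 2. It was -2.46 in littermate 3 and -1.51, -0.14, and -0.64 in the Cdr1as-/- mice. The order is thus not particular to the 89, and its share over all tested probes was not counted. Over all 6 arrays 49 of the 89 had a difference below 0. Without littermate 3 and without Cdr1as-/- mouse 2, 108 members were lower at an adjusted p below 0.05 and 1 was higher, where the shares of all tested probes were 19.3% and 1.41%. Without adjustment, at a p below 0.05, the counts were 181 and 4, where the shares were 32.5% and 11.5%. With those same 4 arrays, 0 members passed the adjusted threshold on unscaled signal, where the unadjusted counts were 1 lower and 13 higher against shares of 0.0119% and 26.3%. On the authors' normalized values 0 passed as well, where the unadjusted counts were 161 and 7 against shares of 21.3% and 13.6%.

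The members with the smallest p in the lower direction without littermate 3 were dim. PST100008917 gave signals of 10.3, 9.45, and 10.7 in the littermates and 9.14, 3.73, and 4.52 in the Cdr1as-/- mice. Its scaled difference without littermate 3 was -1.81 ± 0.41 and its unscaled one -0.88 ± 0.68, but only mouse 1 of the Cdr1as-/- group had it well above background, and it stood at the lowest value of the array in mouse 2, so these differences rest on signals that were mostly not measured above background. PST100000822 gave 17.5, 19.3, and 71.8 in the littermates and 18.0, 11, and 5.58 in the Cdr1as-/- mice, with -1.76 ± 0.45 scaled and -0.83 ± 0.69 unscaled. PST100010051 stood at -1.71 ± 0.43 and -0.78 ± 0.68, and each of these 2 was detected in 2 of the 3 Cdr1as-/- mice. In these 3 the unscaled signal of Cdr1as-/- mouse 1 was close to that of littermates 1 and 2, and the scaled level was lower after subtraction of that array's higher 75th percentile.

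PST100041891 was the member detected in all 3 littermates and in no Cdr1as-/- mouse. Its processed signals were 7.98, 5.60, and 7.26 in the littermates and 2.35, 3.73, and 1.09 in the Cdr1as-/- mice, and the groups did not overlap, with Cdr1as-/- mouse 2 at its array's lowest value. It was also the one member with an unadjusted limma p below 0.05 in the lower direction on unscaled signal without littermate 3. It passed the filter through the littermates alone, and because it was not well above background in the Cdr1as-/- mice its level there has only an upper bound, so the fitted difference is not given. That bound is the lowest signal that any detected probe had on each array, or the probe's own signal where higher. On unscaled signal the mean of the littermates did not exceed it, with or without littermate 3, and no fold is given. On the scaled signal the mean of littermates 1 and 2 exceeded it by 1.71-fold, and that of all 3 littermates did not.

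In the higher direction without littermate 3 the smallest p belonged to PST100005279. Its processed signals were 127, 94.1, and 5720 in the littermates and 1500, 164, and 656 in the Cdr1as-/- mice. Among the 5 arrays without littermate 3 the unscaled signal was higher in each Cdr1as-/- mouse than in either littermate, at 2.32 ± 0.79 on the log2 scale (limma, unadjusted p = 0.00805). On the scaled signal the difference was 1.38 ± 0.52 (unadjusted p = 0.0186, adjusted p = 0.306), and Cdr1as-/- mouse 2 lay between the littermates. Littermate 3 had the highest signal of all, and with it the difference was 0.96 ± 0.66 on the scaled and 0.41 on the unscaled signal. PST100026429, another of the 5 with the smallest p in this direction, gave 76.6, 72.0, and 7970 in the littermates and 621, 100, and 159 in the Cdr1as-/- mice, and its sign changed from 0.60 to -0.17 when littermate 3 was included.

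The members that varied most and least across the 5 arrays without littermate 3, among those detected on all 6, differed in how they related to the array's brightness. The SD of the scaled log2 level was largest in PST100028209, PST100024335, and PST100028197, at 1.11, 1.098, and 1.07. PST100028209 gave 1160, 890, and 690 in the littermates and 723, 980, and 618 in the Cdr1as-/- mice, so its unscaled signal stayed within a narrow range while its scaled level did not. PST100028197 gave 2930, 2460, and 731 in the littermates and 2230, 2490, and 1190 in the Cdr1as-/- mice. The SD was smallest in PST100020349, PST100043432, and PST100030511, at 0.13, 0.17, and 0.18. PST100030511 gave 13.4, 14.7, and 360 in the littermates and 58.8, 20.8, and 24.6 in the Cdr1as-/- mice. For PST100030511 and PST100043432 the scaled differences without littermate 3 were 0.22 ± 0.40 and -0.14 ± 0.40.

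PST100020395, one of the members with the smallest p in the higher direction, was measured on 5 arrays, since its spot on Cdr1as-/- mouse 1 was flagged as an outlier by the scanner software and left out of the fit. Its signals were 194, 314, and 938 in the littermates, 281 in Cdr1as-/- mouse 2, and 826 in Cdr1as-/- mouse 3, with a scaled difference of 1.44 ± 0.96 that was 0.60 ± 0.52 without littermate 3. On the authors' normalized values without littermate 3 it was -0.01. That fit included the flagged spot, at 7.85 against 9.03 and 10.4 in Cdr1as-/- mice 2 and 3. The scaled and the normalized difference thus rest on unlike sets of arrays and cannot be compared. The remaining named members with the smallest p over all 6 arrays overlapped between the genotypes: PST100001987 and PST100022598 at -0.72 ± 0.46 and -0.67 ± 0.45, and PST100020285 and PST100009790 at 0.79 ± 0.57 and 0.65 ± 0.50. Without littermate 3 these 4 stood at -1.04, -0.89, 0.49, and 0.24. PST100001987 and PST100022598 passed the filter through the littermates alone. In Cdr1as-/- mouse 2 both stood at the array's lowest value of 3.73, which is not a measured level. PST100036718, named for its p without littermate 3, stood at 0.49 ± 0.42 without that mouse and at 0.26 ± 0.46 over all arrays. It too was below the detection flag in Cdr1as-/- mouse 2.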

How the data were processed

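Per the file headers, each array's scanner output was written by Agilent Feature Extraction 11.0.1.1 and holds 1 spot per probe, with the processed signal (background-subtracted intensity) and flags for detection, outliers, and saturation; no PST spot was saturated. The authors deposited intensities that are not normalized between arrays, and a table of normalized log2 values whose quartiles are alike on all arrays; its normalization is not given in the sources used here. The deposited table of the comparison also holds fold changes and p-values, which were not used; its log2 values per miRNA served for the tissue markers.

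Control spots (536), 500 probes with other identifiers, and outlier-flagged spots were left out. The log2 processed signal was reduced by each array's 75th percentile over probes well above background on all 6 arrays. Group differences came from lmFit and eBayes of limma 3.58.1 (R 4.3.3) without covariates and were adjusted by Benjamini-Hochberg over all 8377 probes tested; limma was tested on simulated data. Single probes were also compared by exact permutation, which allows no p below 0.1 for 3 against 3 and 0.2 for 3 against 2. Other steps ran in Python 3.11.15 with pandas 2.3.3, SciPy 1.17.1, and NumPy 2.4.6. The methods' unpaired t-test was an alternative, as were other scalings, filters, background corrections, blocks, and left-out arrays. The number of arrays limits the precision.

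The 27 probes named are the 5 members with the highest mean deposited level, the 5 in each direction whose limma p was smallest, with all arrays and without littermate 3, up to 3 in each direction detected in all mice of one group and none of the other, and the 3 with the largest and smallest SD without littermate 3 among those detected on all arrays. The members, markers, and rules were chosen with earlier results of these data known.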

Additional observations from a re-analysis of the deposited data

How the results depend on the processing

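The limits of these values are few arrays, dim probes, and a scaling that sets their sign. Most members lie near the background, where arrays differed in floors and detection. The counts at an unadjusted p depended on both littermate 3 and the scaling. Leaving out this array moved the lower count on the scaled signal from 1 to 89 (0.203% and 14.8% of all probes tested). With no scaling the count without littermate 3 was 1 (0.0239%). What sets littermate 3 apart was not tested.

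With all 6 arrays, the adjusted count was 0 in each direction under every scaling, filter, background correction, and block tried, and without any 1 mouse. The unadjusted count of lower members was 1 in the comparison as reported (0.203% of all probes tested). It was 0 with normexp (0%), the filter to probes detected on all arrays (0.0180%), and a floor at the lowest detected signal (0.0239%). It was also 0 with the array position as a block (0.0119%), and for all members without a filter, where only members were fitted. With an intensity trend it was 3 (0.716%). The unadjusted count of higher members was 0 as reported (0.0836%). It was 1 with quantile normalization (0.167%), the authors' normalized values (0.179%), and the methods' t-test (0.143%). With no filter it was 10 over all 2716 PST probes (0.148% of all 14192 probes). It was 3 for all members without a filter, where no other probes were fitted. Alternatives chosen after seeing the data, namely no scaling (0%), scaling to PST probes (0.0239%), and the scan as a block (0.0119%), gave 0 lower. Littermate 1 was alone in its scan, so the scan block gave the same values as leaving out that mouse and is not a separate check. Leaving out 1 mouse at a time, the lower count ranged from 0 to 89 and the higher from 0 to 1. The shares of all probes tested ranged from 0.0119% to 14.8% for lower and from 0% to 1.40% for higher. The 1 lower member was lost without littermate 1, without littermate 2, or without Cdr1as-/- mouse 1.

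The labels do not say that same-numbered mice are paired. Same-numbered mice deviated from their group means with r of -0.79, 0.59, and -0.32. The highest r, 0.84, was between littermate 3 and Cdr1as-/- mouse 1. With 3 mice per group, whose deviations sum to 0, these values cannot decide whether the mice were paired. With the replicate number as a block the unadjusted count of lower members was 0 (0% of all probes tested). No paired call was made.

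Without littermate 3, the unadjusted counts of lower and higher members were 89 and 2 on the authors' normalized values, where 11.6% and 1.90% of all probes tested passed. They were 85 and 2 with quantile normalization (11.1% and 1.83%), 6 and 0 with normexp (2.64% and 0.119%), and 20 and 2 by the methods' t-test (4.03% and 2.14%). In settings chosen after seeing the data they were 1 and 2 with no scaling (0.0239% and 10.1%), 6 and 5 with scaling to PST probes (0.573% and 9.04%), and 43 and 1 for probes detected on all arrays (11.99% and 1.37%). With the array position as a block, which sets Cdr1as-/- mouse 1 alone against littermates 1 and 2, 192 and 1 passed the adjusted threshold (26.3% and 5.97%) and 244 and 3 the unadjusted one (33.3% and 12.1%). Without littermate 3 and Cdr1as-/- mouse 2, also chosen after seeing the data, these counts were 108 and 1 (19.3% and 1.41%), and 181 and 4 (32.5% and 11.5%). On the same 4 arrays the unadjusted counts were 1 and 13 with no scaling (0.0119% and 26.3%), 20 and 39 with scaling to PST probes (3.61% and 35.8%), and 161 and 7 on the authors' normalized values (21.3% and 13.6%). The median difference over the 214 members detected on all arrays was -1.51 with the position block, -1.07 without those 2 mice, and -0.95 without them on the authors' values. Over the 347 tested members these medians were -1.39, -0.92, and -0.70.

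Of the 27 named probes, none passed an adjusted p of 0.05 in 32 of the 34 settings, a number that counts the scan block and leaving out littermate 1 apart. In the 2 others some passed it with the sign of the comparison as reported and some with the opposite sign. Without littermate 3 and Cdr1as-/- mouse 2, 7 kept the sign and 5 were reversed. Only the reversed ones are listed here. With the array position as a block and without littermate 3, PST100033973 stood at -1.92, PST100028054 at -2.33, PST100018510 at -2.16, PST100028209 at -2.55, PST100024335 at -2.47, and PST100028197 at -2.33. Without littermate 3 and Cdr1as-/- mouse 2, PST100028054 stood at -1.82, PST100018510 at -1.61, PST100028209 at -1.86, PST100024335 at -1.87, and PST100028197 at -1.98. Leaving out 1 mouse at a time from the 6, those of PST100028054 ranged from -1.27 to 1.30, of PST100018510 from -1.13 to 2.14, of PST100028209 from -1.35 to 1.30, of PST100024335 from -1.31 to 1.48, and of PST100028197 from -1.45 to 1.83, with littermate 3 left out giving each lowest value. The signs of 9 of the 27 turned, without passing, when littermate 3 was left out, and of 10 with no scaling.

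Detection depended on the flag. By the weaker flag of a signal positive and significant against background, 96.1%, 99.8%, and 100% of members were detected in the littermates and 100%, 72.1%, and 99.8% in the Cdr1as-/- mice. Over all PST probes the shares by the stronger flag were 13.1%, 17.5%, and 67.5%, and 27.3%, 7.92%, and 18.9%.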
